A study of Mus musculus with 8 samples.

Results

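Prostaglandins and prostacyclin are lipid signals made from arachidonic acid, and the genes described here are 10 members of that pathway in cultured mouse cardiac fibroblasts infected with an adenovirus that carries Has2 or the control green fluorescent protein (GFP). The 10 genes (Ptgs1, Ptgs2, Ptges, Ptgis, Ptgds, Ptger2, Ptger4, Ptgfr, Ptgir and Hpgd) were taken by name from a table of raw counts for 55414 genes. Of these 10 genes, 9 had enough counts to be tested, among 15150 genes tested in all. Has2 encodes hyaluronan synthase 2, which makes the matrix polysaccharide hyaluronan.

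The Has2 virus group had 4 libraries, and the GFP virus group had 4. In each group replicates 3 and 4 were labelled male and replicates 1 and 2 female. Each replicate number carried the same preparation name in both groups, so the libraries formed 4 pairs. The male preparations were R76 and R77 and the female ones S643 and S648, so the sex of the animals and the series of preparations cannot be told apart. All cells were labelled as wild type C57BL/6J heart fibroblasts, whereas the treatment protocol names Has2 fl/fl mice. A floxed allele, if present, would be shared by both groups. The protocol also lists a Cre adenovirus, which is not analysed here. Cells were used at passage 2, starved of serum for 24 h and exposed to virus for 5 h. Both groups then received fresh medium with bFGF and TGFb at 20 ng/mL and were collected after 48 h. The labels give no age, and whether each preparation stems from its own animals is not stated. The p-values therefore measure the spread between these samples, which may be technical.

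The pathway starts when a cyclooxygenase, Ptgs1 or Ptgs2, turns arachidonic acid into prostaglandin H2. Separate synthases then make the individual prostanoids: Ptges makes prostaglandin E2, Ptgis makes prostacyclin and Ptgds makes prostaglandin D2. These act through G protein-coupled receptors on nearby cells, and Hpgd inactivates prostaglandins inside cells. In the heart, prostacyclin and prostaglandin E2 are known for acting on vessels, inflammation and fibroblast activation.

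The cyclooxygenases catalyse the entry step of the pathway, and Ptgs1 is usually described as constitutive and Ptgs2 as inducible. Their proximal promoters are shown to set the sequences of the inducible and the constitutive gene side by side. The sequences are from RefSeq on build GRCm38.p6 and run from 250 bases before to 30 bases after the annotated start, 5′ to 3′ on the gene's strand. Capitals mark motifs found among 5 that were searched on both strands: the CRE core ACGTCA, the E-box CACGTG, the C/EBP palindrome TTGCGCAA, the Sp1 box GGGCGG and the TATA box TATAAA.
Ptgs2: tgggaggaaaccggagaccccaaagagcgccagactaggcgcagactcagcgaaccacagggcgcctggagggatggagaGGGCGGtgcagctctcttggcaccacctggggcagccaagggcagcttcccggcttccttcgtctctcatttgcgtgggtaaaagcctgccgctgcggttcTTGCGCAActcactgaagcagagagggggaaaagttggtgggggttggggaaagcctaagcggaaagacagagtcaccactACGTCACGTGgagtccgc
Ptgs1: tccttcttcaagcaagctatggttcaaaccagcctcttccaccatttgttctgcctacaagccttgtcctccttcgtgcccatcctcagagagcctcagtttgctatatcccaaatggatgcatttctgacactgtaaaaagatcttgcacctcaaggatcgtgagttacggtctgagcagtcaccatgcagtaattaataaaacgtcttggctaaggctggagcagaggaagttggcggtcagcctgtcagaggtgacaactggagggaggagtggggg
The Ptgs2 window lies at chr1:150099781-150100060 on the plus strand and has a GC content of 61.4%. It holds the Sp1 box 170 to 165 bases before the start and the C/EBP palindrome 69 to 62 bases before it. The CRE core, at bases 13 to 18 after the start, overlaps the E-box at bases 17 to 22. The Ptgs1 window lies at chr2:36230176-36230455 on the plus strand, has a GC content of 49.6% and holds none of the 5 motifs. Among 32851 promoter windows of the same length, the C/EBP palindrome occurred in 0.180%, the E-box in 6.79% and the CRE core in 7.26%. The TATA box occurred in 13.1% of them and the Sp1 box in 34.7%. A match is a run of letters and not a measured binding site. Positions count from the annotated start, and where transcription starts in these cells was not measured. A motif outside the window would not be seen.

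Libraries held 46981231 to 55795187 counts. Levels are given as CPM, counts divided by the library total after edgeR's TMM scaling. Has2 had 3209 to 9533 CPM in Has2 virus libraries, against 7.36 to 25.2 CPM in GFP virus libraries, so each library labelled with the Has2 virus was above every library labelled with GFP. These counts can include transcripts from the virus. All 11 fibroblast markers reached 1 CPM in at least 1 library. Their summed level was 25835 to 39817 CPM with the Has2 virus and 25636 to 39151 CPM with the GFP virus. The 13 macrophage markers summed to 879 to 2397 CPM with the Has2 virus and 929 to 2264 CPM with the GFP virus. Only Cd163 stayed below 1 CPM in every library. The 7 cardiomyocyte markers summed to 4.53 to 8.95 CPM with the Has2 virus and 4.92 to 9.17 CPM with the GFP virus. In such bulk samples, fewer cells of a type and less RNA per cell cannot be told apart.

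Ptgis, the prostacyclin synthase, was by far the most abundant transcript of the pathway. Levels were compared between genes as CPM per kilobase of the longest annotated transcript. On that scale the level of Ptgis averaged 395 ± 103 with the Has2 virus and 421 ± 92.4 with the GFP virus (SD, n = 4 each). Its mean CPM, before division by length, was exceeded by that of 131 of the 15150 genes tested. The constitutive cyclooxygenase Ptgs1 came next, with a level of 27.6 ± 4.75 CPM per kilobase with the Has2 virus and 28.5 ± 4.52 with the GFP virus. The mean per-length level of Ptgis over all 8 libraries was 14.5-fold that of Ptgs1, and the ranges of these genes did not overlap.

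The receptors Ptger4 and Ptgir, Gs-coupled receptors for prostaglandin E2 and prostacyclin, followed the cyclooxygenase Ptgs1. The mean per-length level of Ptgs1 was 1.93-fold that of Ptger4, and their ranges did not overlap. Ptger4 had a per-length level of 13.7 ± 6.11 CPM per kilobase with the Has2 virus and 15.3 ± 6.91 with the GFP virus. Ptgir had a per-length level of 8.77 ± 1.71 CPM per kilobase with the Has2 virus and 9.66 ± 1.81 with the GFP virus. Ptgs2 stood at 6.01 ± 2.21 CPM per kilobase with the Has2 virus and 7.69 ± 2.53 with the GFP virus. The ranges of Ptger4 and Ptgir overlapped, as did those of Ptgir and Ptgs2, so, on this scale, the order of these 3 genes is not separated from the spread between libraries. Ptges, the inducible microsomal prostaglandin E synthase, averaged 2.88 ± 0.95 CPM per kilobase with the Has2 virus and 2.65 ± 0.87 with the GFP virus. Its range overlapped that of Ptgs2, although on the longest-transcript scale Ptgs2 was higher in 8 of 8 libraries. Hpgd, the degrading dehydrogenase, averaged 1.91 ± 1.49 CPM per kilobase with the Has2 virus and 2.51 ± 1.86 with the GFP virus, and its range overlapped that of Ptges.

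The remaining 3 genes had the lowest levels on this scale. Ptger2 and Ptgds were close to the limit of what these libraries can show, while Ptgfr had 63 to 154 counts per library. Ptgfr, the receptor for prostaglandin F2α, had a per-length level of 0.27 ± 0.05 CPM per kilobase with the Has2 virus and 0.37 ± 0.08 with the GFP virus. The mean per-length level of Hpgd was 6.97-fold that of Ptgfr, with no overlap of their ranges. Ptger2, the second Gs-coupled prostaglandin E2 receptor, had 4 to 43 counts per library and a per-length level of 0.10 ± 0.10 CPM per kilobase with the Has2 virus and 0.11 ± 0.07 with the GFP virus. Its range overlapped that of Ptgfr. Ptgds had 3, 3, 4 and 2 counts in Has2 virus replicates 1 to 4, against 4, 1, 1 and 0 counts in GFP virus replicates 1 to 4. Ptgds, the lipocalin-type prostaglandin D synthase, was the member left untested. It is not the only prostaglandin D synthase gene. Hpgds, another, had 56 to 721 counts per library and averaged 5.49 CPM over the 8 libraries.

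The length used for this scale matters most for Ptgs1, Ptges and Ptgfr. With the median annotated transcript in place of the longest, the mean level was 115 CPM per kilobase for Ptgs1, 16.2 for Ptges and 1.37 for Ptgfr. On that scale Ptges stood above Ptgs2, at 12.7, and Ptgir, at 10.1, so the order of these genes turned with the length used. With the union of exons, Ptgir stood above Ptger4, at 9.14 and 8.23 CPM per kilobase. Ptgis stayed highest on both scales, at 502 CPM per kilobase with the median transcript and 335 with the union of exons.

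**Figure D1:**
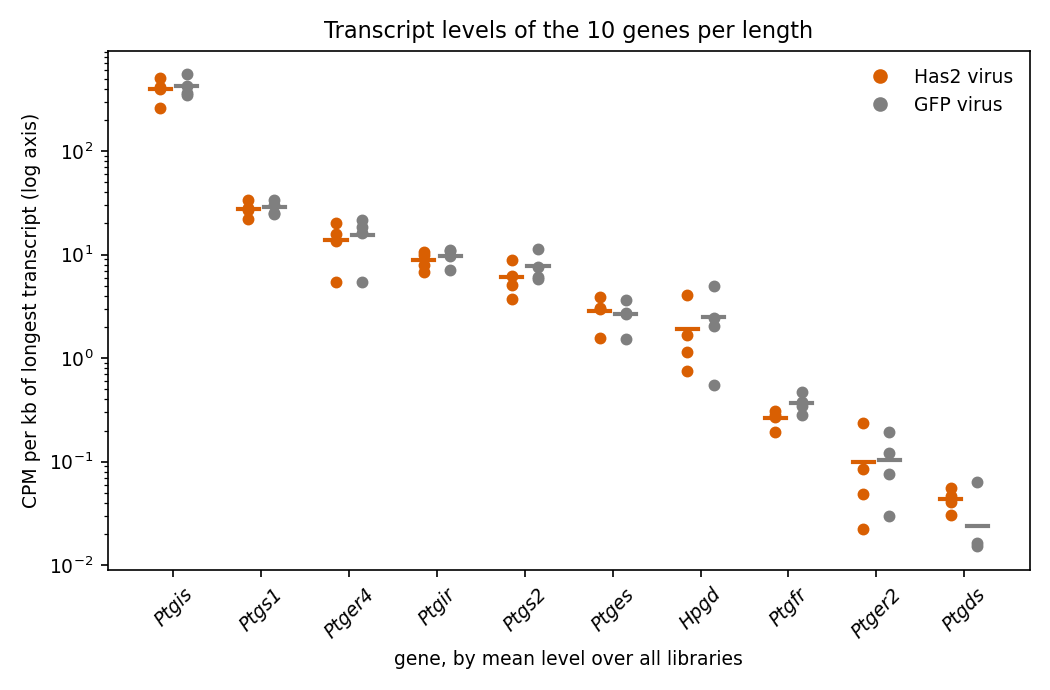
Level of each of the 10 genes as CPM per kilobase of the longest transcript, on a log axis, with a point per library and a bar at the mean of 4 libraries, Has2 virus in orange and GFP virus in grey. Ptgis stands 14.5-fold above Ptgs1 and Ptgds lies at the bottom; the GFP virus library with 0 Ptgds counts cannot be drawn on a log axis.

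The balance of the isoenzymes was in favour of Ptgs1 in every library. Ptgs2 made up 38.8%, 23.0%, 17.0% and 22.4% of the summed Ptgs1 and Ptgs2 counts in Has2 virus replicates 1 to 4, against 32.6%, 23.8%, 26.1% and 34.0% in GFP virus replicates 1 to 4. The exact binomial 95% interval was 16.01% to 18.1% for the lowest share, in Has2 virus replicate 3. It was 37.6% to 40.1% for the highest, in Has2 virus replicate 1; these intervals cover counting error only. The shares overlapped between the groups, with means of 25.3% ± 9.41 with the Has2 virus and 29.1% ± 4.93 with the GFP virus (SD, n = 4 each). Ptgis exceeded Ptges in all 8 libraries, with a ratio of Ptgis CPM to Ptges CPM of 59.3 to 135. Ptges is not the only prostaglandin E synthase gene. Ptges3, another, averaged 86.3 CPM over the 8 libraries, against 10.1 CPM for Ptges and 859 CPM for Ptgis.

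The comparison of the Has2 virus with the GFP virus asks which transcripts differ when the cells make more hyaluronan synthase. None of the 9 tested genes of the pathway was called at an edgeR quasi-likelihood adjusted p under 0.05 in the paired fit, where 0.00660% of all genes tested were called, a single gene, Has2. At an unadjusted p under 0.05 the count was 0 of 9 for the pathway, against 7.49% of all genes tested, and DESeq2 with the same pairing also called 0 of 9. Of the 9 log2 fold changes 8 were negative, and their median was -0.14, against a median of -0.02 over all genes tested. For none of the 9 genes did the libraries of the groups separate, and 2.38% of all genes tested did so. The 95% interval of the change lay within 2-fold in either direction for 8 of the 9 genes, Ptger2 being the exception.

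Among the synthesis genes, Ptgs1 had 62.8, 76.7, 81.1 and 95.9 CPM in Has2 virus replicates 1 to 4, against 70.0, 87.3, 72.4 and 97.5 CPM in GFP virus replicates 1 to 4. The groups overlapped almost completely, with a log2 fold change of -0.05 and a 95% interval of -0.29 to 0.18 (SE 0.10, edgeR adjusted p = 0.899). Ptgs2 had 39.9, 22.9, 16.6 and 27.7 CPM in Has2 virus replicates 1 to 4, against 33.8, 27.3, 25.6 and 50.3 CPM in GFP virus replicates 1 to 4. It was lower with the Has2 virus in 3 of 4 pairs, with a log2 fold change of -0.38 (SE 0.18, 95% interval -0.81 to 0.06, edgeR adjusted p = 0.648). With the trend of GC content and transcript length removed, the log2 fold change of Ptgs2 was -0.05, and without replicate 4 it was -0.18.

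Ptges had 5.77, 14.1, 11.2 and 10.97 CPM in Has2 virus replicates 1 to 4, against 5.64, 13.4, 9.66 and 9.89 CPM in GFP virus replicates 1 to 4. It was the only tested gene of the 9 that was higher with the Has2 virus in 4 of 4 pairs, as were 9.16% of all genes tested. The step within a pair was small beside the spread between preparations: the log2 fold change was 0.12 (SE 0.11, edgeR adjusted p = 0.745), and female preparation S643 had less than any other preparation under both viruses. Ptgis had 543, 835, 1070 and 876 CPM in Has2 virus replicates 1 to 4, against 763, 1158, 899 and 731 CPM in GFP virus replicates 1 to 4. Its log2 fold change over all pairs of -0.11 had a 95% interval of -0.51 to 0.28 (SE 0.17, edgeR adjusted p = 0.855), with 2 pairs higher and 2 lower.

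Among the receptors, Ptgir was the only gene lower with the Has2 virus in 4 of 4 pairs, as were 7.96% of all genes tested. It had 26.0, 22.6, 34.7 and 32.7 CPM in Has2 virus replicates 1 to 4, against 32.0, 23.5, 35.5 and 36.8 CPM in GFP virus replicates 1 to 4. The log2 fold change of Ptgir was -0.14 (SE 0.10, edgeR adjusted p = 0.682), and the two-sided exact permutation p over its 4 pairs was 0.125, the smallest that 4 pairs allow. Ptger4 had 75.4, 20.7, 60.1 and 50.5 CPM in Has2 virus replicates 1 to 4, against 80.6, 20.6, 69.3 and 60.3 CPM in GFP virus replicates 1 to 4. The preparations of this receptor differed far more than the viruses: S648 was lowest under both, and the log2 fold change was -0.14 (SE 0.10, edgeR adjusted p = 0.681).

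Ptgfr had 1.89, 2.05, 1.80 and 1.28 CPM in Has2 virus replicates 1 to 4, against 2.51, 1.88, 3.12 and 2.28 CPM in GFP virus replicates 1 to 4. Only replicate 2 was not lower with the Has2 virus, and the log2 fold change of -0.48 had a 95% interval of -0.96 to 0.00 (SE 0.20, edgeR adjusted p = 0.648). After the same correction the log2 fold change of Ptgfr was -0.19. Ptger2 had 0.18, 0.08, 0.32 and 0.88 CPM in Has2 virus replicates 1 to 4, against 0.44, 0.11, 0.28 and 0.71 CPM in GFP virus replicates 1 to 4. At these low counts the log2 fold change of -0.22 had an SE of 0.35 and a 95% interval of -1.04 to 0.61 (edgeR adjusted p = 0.871).

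Hpgd had 6.85, 1.27, 1.91 and 2.83 CPM in Has2 virus replicates 1 to 4, against 8.45, 0.92, 3.42 and 4.14 CPM in GFP virus replicates 1 to 4. It was lower with the Has2 virus in 3 of 4 pairs, with a log2 fold change of -0.35 (SE 0.22, 95% interval -0.86 to 0.17, edgeR adjusted p = 0.667). The highest library had 9.18-fold the CPM of the lowest, and both were female.

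**Figure D2:**
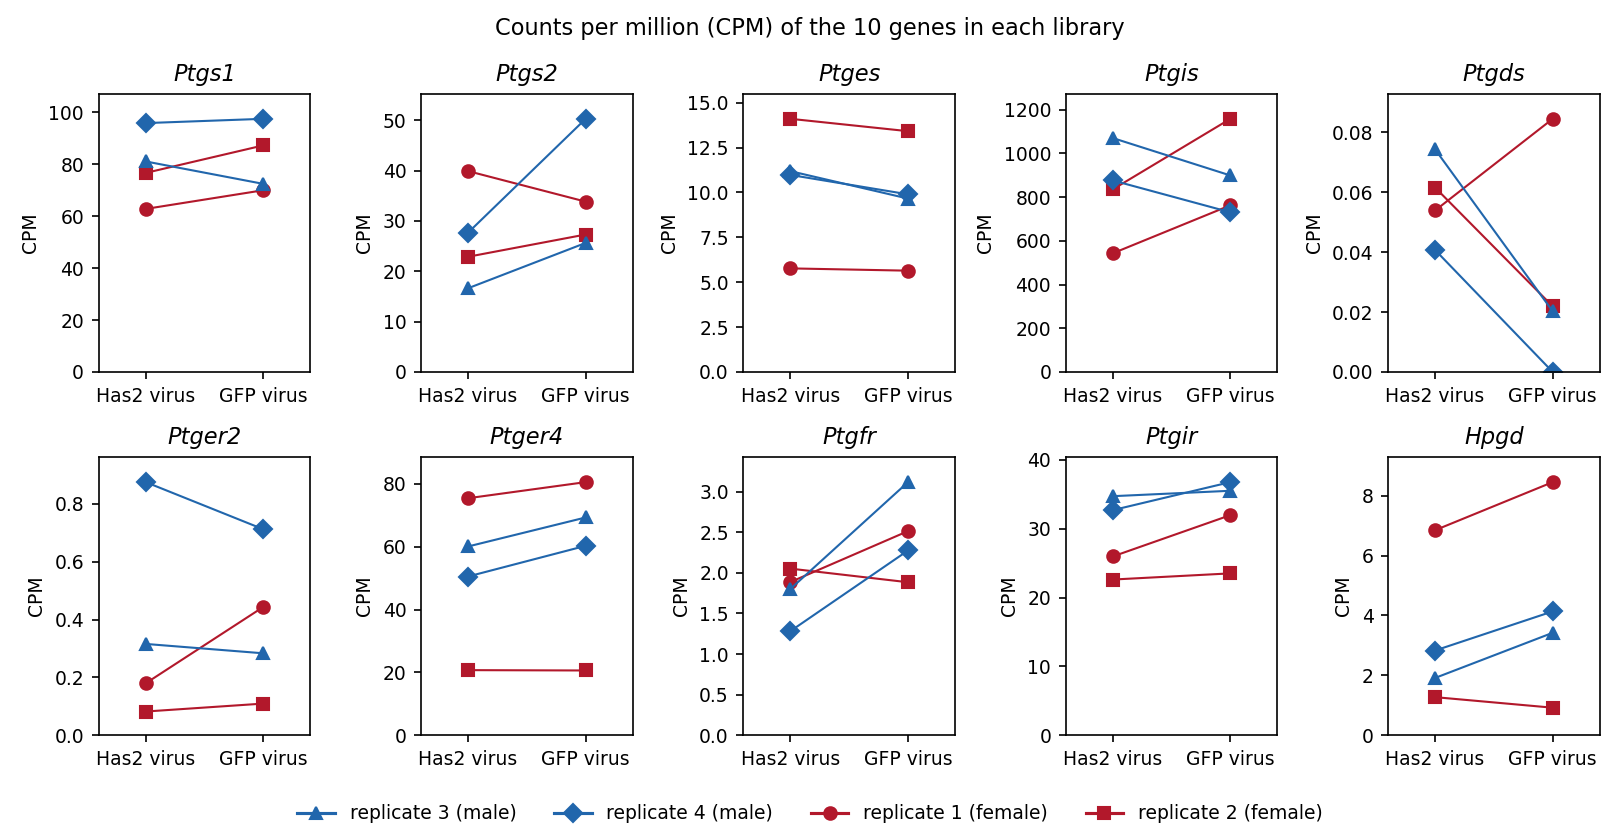
CPM of each of the 10 genes in the 8 libraries, Has2 virus on the left and GFP virus on the right of each panel, with a line joining the libraries of a replicate number; male replicates 3 and 4 in blue, female replicates 1 and 2 in red. Lines for Ptges all run slightly higher on the Has2 side, those for Ptgir slightly lower, and for Ptgis the blue and red lines cross.

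The labels also give the sex of each preparation, which allows the change with the Has2 virus to be set against sex. Of the 9 genes 2 differed, Ptgis and Ptgs2, in opposite directions. In this test 29.5% of all genes tested were called, so 2 of 9 is a share close to the background and says nothing particular to the pathway. With sex and the preparation series confounded, the difference cannot be given to either. In a fit without the pairing no gene was called. The difference for Ptgis was then 0.74 (SE 0.39, edgeR adjusted p = 0.470). For Ptgs2 it was -0.82 (SE 0.57, edgeR adjusted p = 0.570), so both were about as large, with larger errors.

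In both male pairs Ptgis was above its GFP virus partner, at 1.19-fold and 1.20-fold in replicates 3 and 4, and lower in both female pairs, at 0.712-fold and 0.721-fold in replicates 1 and 2. Of all genes tested, 34.5% showed both male pairs on one side and both female pairs on the other. The male minus female difference in log2 change was 0.74, with a 95% interval of 0.46 to 1.02 (SE 0.13, edgeR adjusted p = 0.00156). Within the sexes the log2 change of Ptgis was 0.26 in male pairs (edgeR adjusted p = 0.0586) and -0.48 in female pairs (edgeR adjusted p = 0.0153), so only the female fall passed the test. The difference for Ptgis lay between 0.74 and 0.76 when any replicate number was left out.

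Ptgs2 was lower with the Has2 virus in both male pairs, at 0.649-fold and 0.550-fold in replicates 3 and 4. In the female pairs it was 1.18-fold and 0.838-fold in replicates 1 and 2, so these lay on both sides of no change. The male minus female difference in log2 change was -0.74, with a 95% interval of -1.12 to -0.37 (SE 0.17, edgeR adjusted p = 0.00820). Ptgs2 fell by 0.75 on the log2 scale in male pairs (SE 0.12, edgeR adjusted p = 0.000922), and its log2 change in female pairs was -0.00 (SE 0.12, edgeR adjusted p = 0.994). Without replicate 4 the adjusted p of the difference was 0.0694.

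In male pairs 2 other genes of the pathway also fell. Ptgfr fell by 0.81 on the log2 scale (SE 0.21, edgeR adjusted p = 0.0193) and Hpgd fell by 0.69 (SE 0.20, edgeR adjusted p = 0.0284). With Ptgs2, 3 of 9 genes fell in male pairs, where 19.2% of all genes tested fell, and in female pairs 1 of 9 fell, Ptgis, where 4.83% did. The difference between the sexes itself missed the threshold for Ptgfr (-0.65, SE 0.30, edgeR adjusted p = 0.131) and for Hpgd (-0.63, SE 0.28, edgeR adjusted p = 0.123). Without replicate 1, which leaves a single female pair, the difference was -0.91 for Ptgfr and -1.13 for Hpgd.

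**Figure D3:**
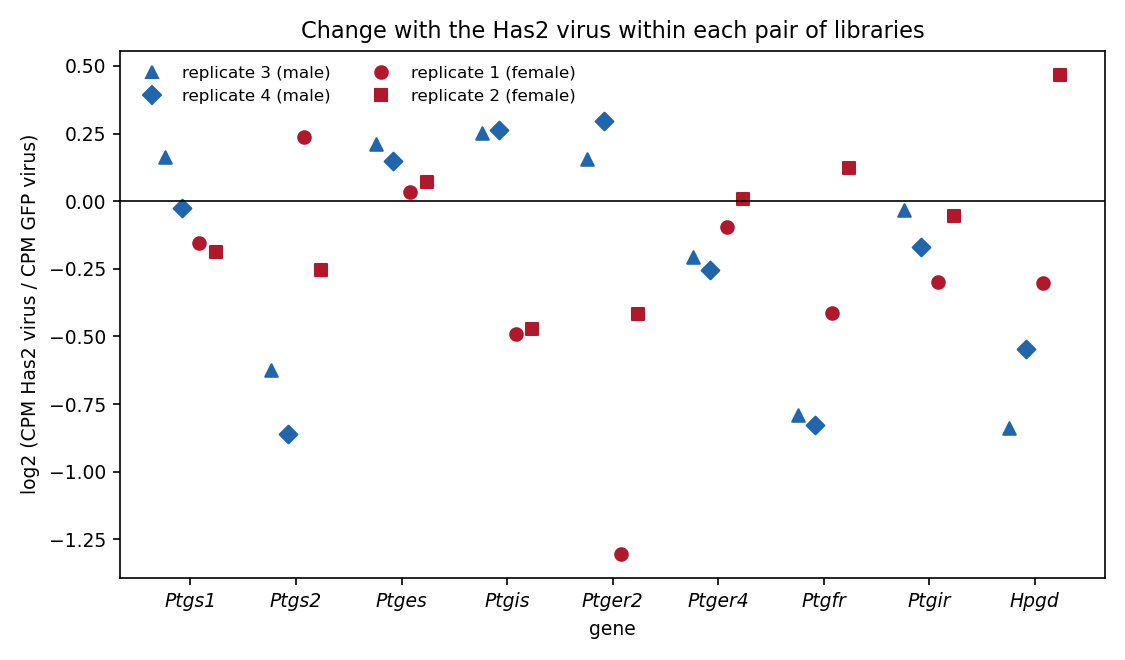
Log2 ratio of CPM with the Has2 virus to CPM with the GFP virus within each pair of libraries, for the 9 tested genes, male replicates 3 and 4 in blue and female replicates 1 and 2 in red. Both male Ptgis points lie above 0 and both female ones below it, while the male points of Ptgs2, Ptgfr and Hpgd lie below the female ones.

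The differences between the sexes moved with the base composition of the transcripts. The transcript of Ptgs2 has a GC content of 40.0% and that of Ptgis 56.6%. All 4 tested genes at or above 50% GC (Ptgs1, Ptges, Ptgir and Ptgis) had a positive male minus female difference. Of the 5 below 50%, 4 had a negative one (Ptgs2, Hpgd, Ptgfr and Ptger4), Ptger2 being the exception. Across the whole table the same held: the median difference was -0.90 among the 1481 genes within 2 percentage points of the GC content of Ptgs2, of which 65.2% were called. It was 0.29 among the 2487 genes within 2 points of Ptgis, of which 23.6% were called.

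When a smooth trend of GC content and transcript length was removed from each library, the difference for Ptgs2 was 0.12 (SE 0.17, edgeR adjusted p = 0.718) and no longer called. Ptgis kept a called difference of 0.38 (SE 0.10, edgeR adjusted p = 0.0474), where 10.6% of all genes tested were called. In female pairs Ptgis was then at -0.34 (edgeR adjusted p = 0.0471) and in male pairs at 0.04 (edgeR adjusted p = 0.799). Ptgs2 was at 0.02 in male pairs (edgeR adjusted p = 0.964) and at -0.11 in female pairs (edgeR adjusted p = 0.664), so its male fall was not present on this scale. In male pairs Ptgfr was at -0.01. Hpgd was at -0.00 there. Ptgir, which was not called in either sex as counted, was at -0.29 in male pairs (edgeR adjusted p = 0.0480). These values per sex with the trend removed were chosen after seeing the data. The share of all genes called in these fits per sex was not counted, so their calls have no background beside them.

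**Figure D4:**
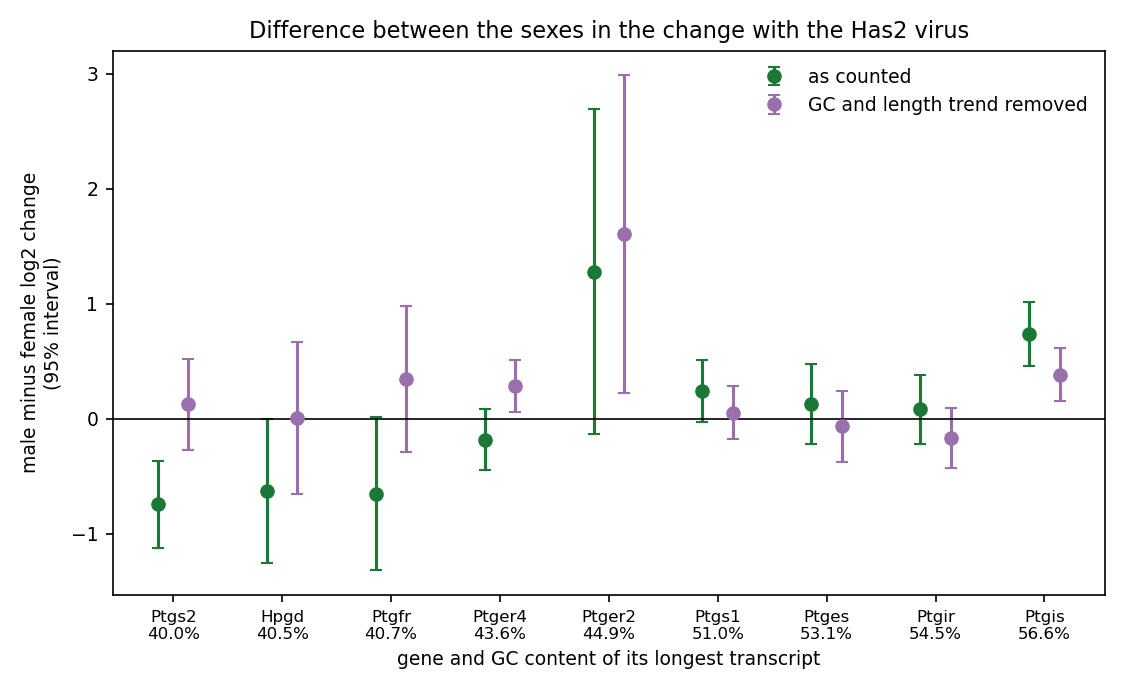
Male minus female difference in the log2 change with the Has2 virus for the 9 tested genes, ordered by the GC content of the longest transcript, with 95% intervals from edgeR, as counted in green and, in purple, after removal of the GC and length trend. As counted, Ptgs2 at 40.0% GC lies at -0.74 and Ptgis at 56.6% GC at 0.74; with the trend removed they lie at 0.12 and 0.38.

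Levels were also compared between male and female preparations in the GFP virus libraries alone, as the state without the Has2 virus. None of the 9 genes was called, against 0.0260% of 15366 genes tested, and at an unadjusted p under 0.05 the count was also 0 of 9 (651 genes in all). DESeq2 called 0 of 9 as well. Only 3 of the 9 intervals lay within 2-fold in either direction, and the other intervals reached beyond 2-fold, with 2 preparations a sex. The male minus female log2 difference was 0.32 for Ptgs2 (SE 0.33), -0.23 for Ptgis (SE 0.25) and 0.39 for Ptgir (SE 0.20).

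For Hpgd and Ptger4 the answer rested on which female preparation was present. Hpgd had 3.42 and 4.14 CPM in male replicates 3 and 4, between the 8.45 and 0.92 CPM of female replicates 1 and 2. Without female replicate 1 the male minus female log2 difference of Hpgd was 2.04 (edgeR adjusted p = 0.000305), and without female replicate 2 it was -1.15 (edgeR adjusted p = 0.0141). Ptger4 had 69.3 and 60.3 CPM in male replicates 3 and 4, against 80.6 and 20.6 CPM in female replicates 1 and 2. Without female replicate 1 its difference was 1.66 (edgeR adjusted p = 3.53e-10), and without female replicate 2 it was -0.30 (edgeR adjusted p = 0.729). These fits have a single female library, which is assumed to vary like the male ones.

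The macrophage markers differed between the female preparations in the same direction as Hpgd and Ptger4. Their summed level was 2133, 879, 1848 and 2397 CPM in Has2 virus replicates 1 to 4, against 2264, 929, 1642 and 2064 CPM in GFP virus replicates 1 to 4. Preparation S648, lowest for the markers under both viruses, was also lowest for Ptger4, Hpgd, Ptger2 and Ptgir. Ptges ran the other way between the female preparations and was highest in S648. As counted, the summed markers were higher with the Has2 virus in both male pairs, and Ptger4 and Hpgd were lower. After correction for GC content and transcript length, the log2 change in male pairs was 0.20 for Ptger4 (SE 0.07, edgeR adjusted p = 0.101). For Hpgd it was -0.00, so neither fall was present on that scale. The summed markers were not corrected in this way. Spearman's rho with the summed markers over 8 libraries was 0.810 for Ptger2, 0.690 for Hpgd and 0.548 for Ptger4. It was 0.595 for Ptgs2, 0.333 for Ptgir, -0.024 for Ptgs1, -0.190 for Ptgfr, -0.452 for Ptgis and -0.667 for Ptges. None of the 12 tested macrophage markers was called between the viruses, and 8 of 12 were called in the comparison of the male with the female change, where 29.5% of all genes tested and 4 of 11 fibroblast markers were. The part of macrophages in the levels of any of these pathway genes was not tested.

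**Figure D5:**
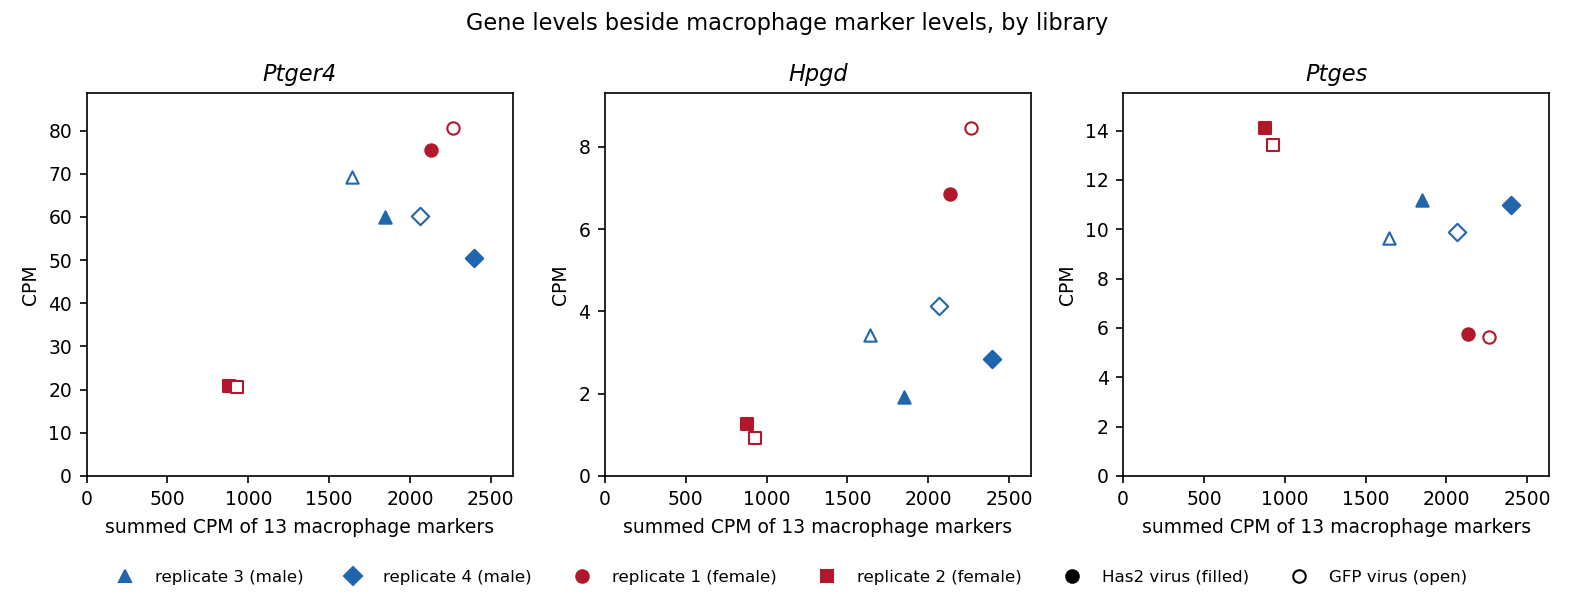
CPM of Ptger4, Hpgd and Ptges against the summed CPM of 13 macrophage markers in each library, filled symbols for the Has2 virus and open symbols for the GFP virus, male replicates in blue and female ones in red. Both libraries of female replicate 2, at 879 and 929 CPM of markers, hold the lowest Ptger4 and Hpgd and the highest Ptges.

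Genes around the pathway were read from 6 lists, and none of their tested members was called between the viruses. Among phospholipases A2 and other genes of precursor release, 9 of 15 genes were tested, with a median log2 fold change of 0.03. The smallest p belonged to Anxa1, encoding annexin A1, which is known to restrain phospholipase A2. Anxa1 had 430 ± 100.2 CPM with the Has2 virus and 605 ± 45.2 CPM with the GFP virus (SD, n = 4 each), a log2 fold change of -0.52 (SE 0.14, edgeR adjusted p = 0.648). Pla2g4a, the cytosolic phospholipase A2 that supplies cyclooxygenases, stood at -0.59 (SE 0.20, edgeR adjusted p = 0.648) and Pla2g6 at 0.15 (SE 0.10, edgeR adjusted p = 0.680).

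All 13 of the other prostanoid synthases and reductases were tested, with a median log2 fold change of -0.05. Those of smallest p were Akr1c14, an aldo-keto reductase, at -1.26 (SE 0.41), Ptges3, the cytosolic prostaglandin E synthase and Hsp90 partner, at -0.41 (SE 0.19), and Ptgr2, which reduces 15-keto prostaglandins, at -0.17 (SE 0.10). Among other receptors and transporters 8 of 11 genes were tested and 7 were positive, with a median of 0.15. Slco2a1, the prostaglandin uptake transporter, was at 0.19 (SE 0.09), Ptgfrn, which binds the receptor Ptgfr, at 0.16 (SE 0.10), and the nuclear receptor Ppard at 0.23 (SE 0.09). Each of these 3 genes, named for their small p, was higher with the Has2 virus in 4 of 4 pairs, as were 9.16% of all genes tested. Among the genes named from the lists by the same rule, Alox12, Pde4a and Khsrp were also higher in 4 of 4 pairs. Anxa1, Ptgr2, Rgs2 and Crem were lower in 4 of 4 pairs, as were 7.96% of all genes tested. Choice by small p in this paired fit favours genes whose pairs agree. The shares of all genes therefore cannot show whether the lists hold more such genes.

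In the lipoxygenase and leukotriene branch 9 of 15 genes were tested, with a median log2 fold change of 0.07. Cysltr1, a leukotriene receptor, was at -0.80 (SE 0.38), Alox12 at 0.42 (SE 0.26) and Alox5 at 0.21 (SE 0.14). Of 23 cAMP response genes, which lie downstream of the Gs-coupled receptors Ptger2, Ptger4 and Ptgir, 22 were tested, with a median of 0.03. Rgs2, a regulator of G protein signalling, was at -0.53 (SE 0.13), the transcription factor gene Crem at -0.48 (SE 0.14) and the phosphodiesterase gene Pde4a at 0.26 (SE 0.09), none called. Of 21 regulators of Ptgs2 transcript synthesis and decay, 19 were tested, with a median of 0.04. Khsrp, which binds AU-rich RNA, was at 0.23 (SE 0.08), Tsc22d3 at -0.20 (SE 0.12) and Tnfrsf1a at 0.15 (SE 0.09).

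More of these genes differed between the male and the female change, where 29.5% of all genes tested were called. The synthases and reductases had 6 genes called higher and 3 lower of 13 tested, and the Ptgs2 regulators 4 higher and 5 lower of 19. The leukotriene branch had 3 higher and 1 lower of 9, the genes of precursor release 1 higher and 2 lower of 9, the cAMP response genes 0 higher and 3 lower of 22, and the receptors and transporters none of 8. The genes of smallest p that were higher in the male change were Fam213b, a prostamide and prostaglandin F synthase (0.74, SE 0.14, edgeR adjusted p = 0.00255), Cbr3, a carbonyl reductase (0.66, SE 0.12, edgeR adjusted p = 0.00278), and Akr1b3, aldose reductase (0.58, SE 0.12, edgeR adjusted p = 0.00383). Those lower were Nr3c1, the glucocorticoid receptor (-1.45, SE 0.15, edgeR adjusted p = 6.41e-05), Celf2, an RNA-binding protein known to bind the Ptgs2 transcript (-0.96, SE 0.13, edgeR adjusted p = 0.000321), and Pla2g4a (-0.92, SE 0.13, edgeR adjusted p = 0.000530). With the GC and length trend removed, Akr1b3 (0.72), Nr3c1 (-0.59) and Pla2g4a (-0.53) were still called, while Fam213b (0.25), Cbr3 (0.22) and Celf2 (0.01) were not.

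For the 2 genes called between the sexes, the genes most alike across the 8 libraries were found by Pearson's r of log2 CPM among 10304 genes with a mean of at least 5 CPM. The libraries share preparations, so these values are descriptions. Nearest to Ptgs2 were Hnrnpf (r = 0.986), Top2a (r = 0.958) and Ect2 (r = 0.955). Hnrnpf ranged only from 47.6 to 64.8 CPM, against 16.6 to 50.3 CPM for Ptgs2. Nearest to Ptgis were Gpx7 (r = 0.992), Jph2 (r = 0.987) and Carhsp1 (r = 0.987). The male minus female difference was not called for Hnrnpf (-0.21, edgeR adjusted p = 0.2015) or Jph2 (0.32, edgeR adjusted p = 0.0638). It was called for Top2a, Ect2, Gpx7 and Carhsp1.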

How the data were processed

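The deposited table holds whole-number counts by the authors for each Ensembl gene in 8 libraries. Per the labels' protocols, RNA was extracted with Trizol and libraries were made with a stranded mRNA kit. Per the submitters' processing notes, FastQC 0.10.1 and HTSeq 0.10.0 were used with mouse build GRCm39 (mm39); the aligner, the annotation release and how strand was treated were not given in the sources used here, so reads of overlapping or antisense genes may be divided differently. Symbols, transcript lengths and GC content came from GENCODE M21, which annotates an older build; 52081 of 55414 identifiers matched, and those that did not held 0.405% to 0.871% of counts. The only coordinates given are those of the RefSeq promoter windows, on build GRCm38.p6.

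Tests used edgeR 4.0.16 (R 4.3.3): TMM scaling, the default expression filter, quasi-likelihood F-tests with replicate number as a block, Benjamini-Hochberg adjustment over all genes tested, and a threshold of 0.05. The number was used as a block because library names give both libraries of a number the same preparation name. Correlations of their deviations from group means were 0.576, 0.622, 0.527 and 0.437 for replicates 1 to 4. The GC and length trend was a spline with 5 degrees of freedom for each, removed as an offset. Alternatives were DESeq2 1.42.0, limma-voom (limma 3.58.1), other scalings and filters, no block, and leaving out each replicate. The scripts were tested on simulated data.

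The genes and lists were chosen with earlier results of these data known. Named besides the 10 genes are Has2, the 3 genes of smallest p per list, the 3 list genes of smallest p per direction between the sexes, and, for each of the 10 called between the viruses, between the male and the female change, or between male and female GFP virus libraries, the 3 genes of highest r. Likeness used log2 CPM with a pseudocount of 2. Of the 10 genes 9 were in the RefSeq promoter table, and Ptgis was not.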

Additional observations from a re-analysis of the deposited data

Results flagged for a closer look

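The change with the Has2 virus differed between the sexes for 2 of the 9 tested genes by a test of the difference itself. For Ptgis the male minus female difference in log2 change was 0.74 (edgeR adjusted p = 0.00156), with male pairs at 0.26 and female pairs at -0.48. For Ptgs2 it was -0.74 (edgeR adjusted p = 0.00820), with male pairs at -0.75 and female pairs at -0.00. After correction for GC content and length the difference was 0.38 for Ptgis (edgeR adjusted p = 0.0474) and 0.12 for Ptgs2 (edgeR adjusted p = 0.718), with male pairs of Ptgs2 at 0.02, so its direction turned and its call was lost. Without the replicate block neither gene was called (edgeR adjusted p = 0.470 for Ptgis and 0.570 for Ptgs2). The sex of the animals and the preparation series are confounded, and 29.5% of all genes tested were called in the same test. Has2 was among them, with a male minus female difference of -1.66 (edgeR adjusted p = 0.00844). In none of the 18 groups of 4 libraries examined (9 genes under each virus) did a single library stand apart from the other 3 by Dixon's test. With 4 values that test finds only very large gaps, so it cannot show that no library stood apart. Ptger4 with the GFP virus, at 80.6, 20.6, 69.3 and 60.3 CPM in replicates 1 to 4, was not called by it.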

How the results depend on the processing

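Under all 22 alternatives for the virus comparison, 0 of the 9 genes were called. Ptger2 was tested in 21 of them, not with the filter of 1 CPM in 4 libraries. It had no adjusted p by DESeq2 with no replicate block. The number of genes called in the whole table was 1 with the pairing as a block. It was 0 with library totals, 118 with no expression filter, 61 by DESeq2 with the block, 7 by DESeq2 with no replicate block and 2 after removal of the GC and length trend; leaving out replicates gave 0 to 1. After that removal the log2 change turned to 0.064 for Ptger4, 0.020 for Hpgd and 0.035 for Ptgr2, and that of Ptgs2 shrank to -0.05 and of Ptgfr to -0.19. With the block, leaving out replicates gave -0.12 to 0.014 for Ptgs1, -0.23 to 0.045 for Ptgis and -0.50 to 0.18 for Ptger2. With no replicate block, leaving out single libraries turned Ptgs1 to 0.065 (Has2 replicate 1) and 0.084 (GFP replicate 4), Ptges to -0.051 (Has2 replicate 2) and -0.037 (GFP replicate 1), and Ptgis to 0.088 (Has2 replicate 1) and 0.061 (GFP replicate 2). It also turned Ptger2 to 0.13, 0.22 and 0.40, Ptger4 to 0.062 and 0.11, and Hpgd to 0.20.

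For the difference between the sexes, 4470 genes and 2 of the 9 were called with the replicate block, and 0 and 0 with no replicate block. After the GC and length correction 1611 genes and 1 of the 9 were called, and leaving out replicates gave 2353 to 4972 genes and 1 to 4 of the 9. The difference turned under that trend correction to 0.12 for Ptgs2, -0.067 for Ptges, 0.28 for Ptger4, 0.35 for Ptgfr, -0.17 for Ptgir, 0.0046 for Hpgd and 0.010 for Celf2, and ranged from -0.028 to 0.20 for Ptgir without single replicates. Ptgis kept its direction under all 9 alternatives and its call under 8, all but the fit without the block.

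For male against female GFP virus libraries, 4 genes were called. There were 7 with no expression filter, 88 by DESeq2 and 0 to 1198 without single libraries (1198 without GFP replicate 1, 661 without GFP replicate 2), with 0 to 2 of the 9. Summing both libraries of a preparation turned Ptgs2 to -0.036 and Ptgis to 0.14. Leaving out single libraries gave -0.11 to 0.32 for Ptgs1, -0.25 to 0.73 for Ptgs2, -0.45 to 0.80 for Ptges, -0.50 to 0.10 for Ptgis, -0.30 to 1.66 for Ptger4 and -1.15 to 2.04 for Hpgd.

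Levels per kilobase were 20.7 for Ptgs1 and 8.23 for Ptger4 with the union of exons. With the median transcript they were 115 for Ptgs1, 12.7 for Ptgs2, 16.2 for Ptges, 502 for Ptgis and 1.37 for Ptgfr. The mean Ptgs2 share with the GFP virus was 21.0% per kilobase. The cause of these shifts was not tested. Counts of 4 to 43 limit Ptger2, and 2 pairs a sex limit every comparison between the sexes.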
